A study of Mus musculus with 4 samples.

Results

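Neutrophil genes, 10 in number of the 55401 genes in the deposited table, were taken from the table by their symbols: S100a8, S100a9, Lcn2, Retnlg, Csf3r, Ly6g, Ngp, Camp, Mpo and Elane. Their values were compared in each of 4 mouse heart libraries, 2 from Sham hearts (the chest opened, no ligation) and 2 from MI hearts (a ligation operation, labelled as myocardial infarction), all labelled day 28. The libraries were made from poly(A) RNA, and the labels used here name no strain, age or sex. The design text speaks of infarcted tissue and normal left ventricle, while the samples are labelled only as heart. All 4 libraries carried the heart muscle myosin gene Myh6 at 2708 to 3134 FPKM (fragments scaled for gene length and library size). Of the 10 neutrophil genes, 5 had more than 12 estimated counts in every library, and all 5 were highest in Sham 1. Of all genes tested, 27.5% were highest in Sham 1. Ly6g, Ngp, Camp and Mpo also had their highest count there, but with at most 19 counts in any library, too few to rank the libraries. Elane had no count in any library.

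Neutrophils are short-lived white blood cells that enter injured heart muscle early after an infarction and are later cleared by macrophages. They are built in the bone marrow in steps. Precursors make the primary granule enzymes first, then the secondary granule proteins, and the mature cell that circulates in blood carries mostly the transcripts of calprotectin and of surface receptors. A heart sample can hold neutrophils both in the tissue and in blood left in its vessels. In a bulk sample, fewer neutrophils and less of a transcript per neutrophil cannot be told apart.

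Only 5 members had more than 12 estimated counts in every library: S100a8, S100a9, Retnlg, Csf3r and Lcn2. About 4 estimated counts correspond to 1 fragment, since low values gather at multiples of 4, so 12 counts stand for about 3 fragments. The stretches of 250 bases before the RefSeq start of these 5 genes are shown because these genes were all highest in the same library. They are from GRCm38.p6 and read 5′ to 3′ on the strand of the gene. S100a8 is at chr3:90668821-90669070 (+), S100a9 at chr3:90695722-90695971 (-), Retnlg at chr16:48872358-48872607 (+), Csf3r at chr4:126024409-126024658 (+) and Lcn2 at chr2:32387740-32387989 (-). Capitals mark TATAAA on the strand of the gene, GAGGAAG (the core that the myeloid factor PU.1 binds) or TTGCNNAA (the core that C/EBP factors bind), the last 2 on either strand.
S100a8: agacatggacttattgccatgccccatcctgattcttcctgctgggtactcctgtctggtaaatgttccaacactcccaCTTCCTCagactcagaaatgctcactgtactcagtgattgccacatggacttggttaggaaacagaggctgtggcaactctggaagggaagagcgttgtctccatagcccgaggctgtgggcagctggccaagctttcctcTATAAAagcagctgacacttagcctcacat
S100a9: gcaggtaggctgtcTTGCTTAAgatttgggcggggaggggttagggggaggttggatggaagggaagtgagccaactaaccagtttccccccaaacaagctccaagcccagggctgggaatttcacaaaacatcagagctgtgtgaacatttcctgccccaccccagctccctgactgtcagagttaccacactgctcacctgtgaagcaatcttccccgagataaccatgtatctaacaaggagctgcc
Retnlg: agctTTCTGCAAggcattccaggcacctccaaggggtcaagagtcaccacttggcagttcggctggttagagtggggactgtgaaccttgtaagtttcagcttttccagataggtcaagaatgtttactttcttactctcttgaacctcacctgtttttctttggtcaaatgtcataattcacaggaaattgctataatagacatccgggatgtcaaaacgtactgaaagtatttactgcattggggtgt
Csf3r: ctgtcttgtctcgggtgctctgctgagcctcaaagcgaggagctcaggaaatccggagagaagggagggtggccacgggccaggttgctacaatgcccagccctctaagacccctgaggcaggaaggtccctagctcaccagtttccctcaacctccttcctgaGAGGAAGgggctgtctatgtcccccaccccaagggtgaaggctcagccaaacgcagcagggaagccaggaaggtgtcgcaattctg
Lcn2: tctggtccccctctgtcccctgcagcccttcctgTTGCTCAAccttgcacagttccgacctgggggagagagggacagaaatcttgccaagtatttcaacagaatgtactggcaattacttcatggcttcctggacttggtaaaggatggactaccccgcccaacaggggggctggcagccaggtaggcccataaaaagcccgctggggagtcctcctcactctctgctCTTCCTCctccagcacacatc

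The PU.1 core was in the windows of S100a8 (starting 171 bases before the start), Csf3r (86 bases) and Lcn2 (21 bases), and the C/EBP core in those of S100a9, Retnlg and Lcn2. No marked motif overlapped another in these 5 windows. Over all 10 members, each of which had a window, GAGGAAG was found for 6 and TTGCNNAA for 5. Of the 32851 windows of this length in the table, 10.6% held GAGGAAG, 9.56% held TTGCNNAA and 7.59% held TATAAA. The RefSeq start of S100a8, Csf3r and Lcn2 lies inside the gene span of the deposited table, so their windows overlap it. A match in letters describes the window and is not evidence of binding.

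S100a8 and S100a9 encode the 2 subunits of calprotectin, the calcium-binding protein that fills the neutrophil cytosol and acts as an alarm signal when released. They lie on chromosome 3, at 90668978 to 90670035 and 90692632 to 90695721, 22596 bases apart and on opposite strands. S100a8 had 12.9 and 2.33 FPKM in Sham 1 and Sham 2, and 4.04 and 1.74 FPKM in MI 1 and MI 2. Sham 1 stood above the other 3 libraries, and the 2 groups overlapped. The means were 7.61 ± 7.46 FPKM (SD, n = 2) in Sham and 2.89 ± 1.63 in MI. The log2 difference, MI minus Sham, was -1.69 ± 0.91 (SE; edgeR quasi-likelihood test, adjusted p = 0.53).

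S100a9 had 37.9 and 7.09 FPKM in Sham 1 and Sham 2, and 12.03 and 5.74 FPKM in MI 1 and MI 2. The order of the libraries was that of S100a8, with Sham 1 first, MI 1 second and the other two close together. Its log2 difference was -1.63 ± 0.87 (edgeR adjusted p = 0.53). The ratio of S100a9 to S100a8 in FPKM was nearly constant, at 2.94, 3.04, 2.98 and 3.30 in Sham 1, Sham 2, MI 1 and MI 2.

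**Figure D1:**
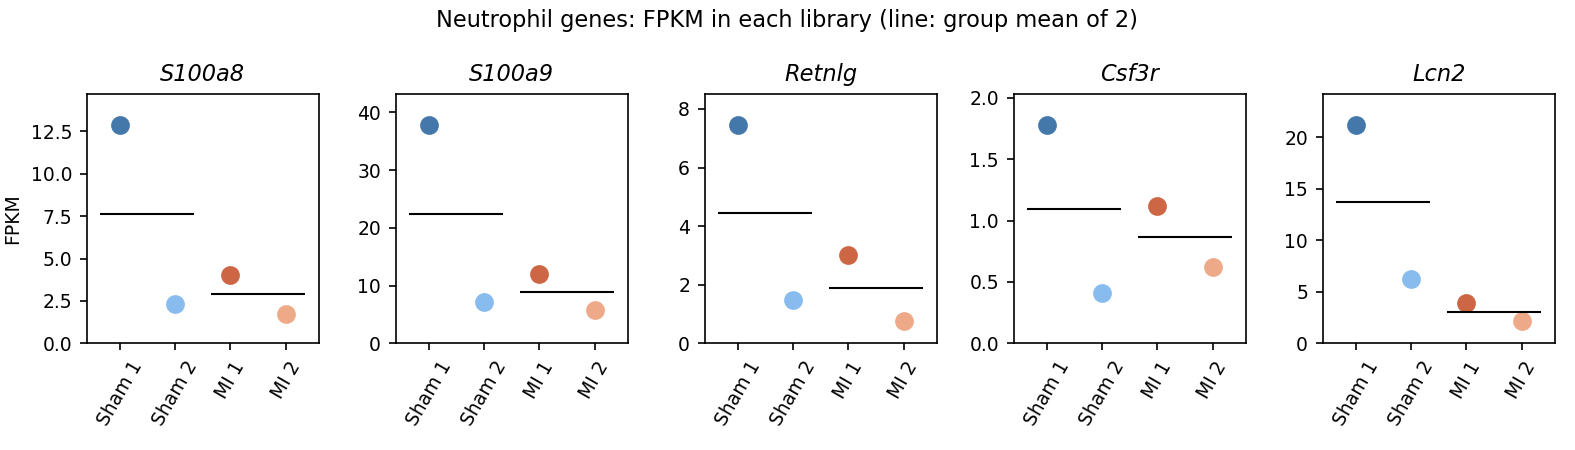
FPKM (y axis, from 0) of the 5 neutrophil genes that were clearly detected, 1 panel per gene, with 1 point per library and a line at the mean of each group of 2. Sham 1 is the highest point in each panel, at 12.9 FPKM for S100a8 and 21.2 FPKM for Lcn2, and only for Lcn2 do both MI points lie below both Sham points.

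Retnlg, a secreted resistin-like protein made by neutrophils (chromosome 16, 48872621 to 48874496), had 7.46 FPKM in Sham 1, 1.47 in Sham 2, 3.03 in MI 1 and 0.75 in MI 2. Sham 1 was again highest, and MI 1 lay above Sham 2. Its log2 difference was -1.55 ± 1.02 (edgeR adjusted p = 0.60). The adipose resistin gene Retn, chosen after its values were seen, was at 2.69 FPKM in Sham 2 and listed at 0 in the other 3 libraries, so the 2 related genes had different patterns.

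Csf3r encodes the receptor for G-CSF, the growth factor that drives neutrophil production (chromosome 4, 126024550 to 126044440). It had 1.78 FPKM in Sham 1, 0.41 in Sham 2, 1.12 in MI 1 and 0.62 in MI 2. Both MI values lay between the 2 Sham values. The log2 difference was -0.61 ± 0.76 (edgeR adjusted p = 0.79), and -0.10 in limma on log2(FPKM + 1). Ly6g, the surface protein used to identify mouse neutrophils, had 13 counts in Sham 1 and 0 in the other libraries, where a count of 0 allows up to 12 counts, or 0.144 to 0.185 CPM (CPM, counts relative to library size, scaled by the trimmed mean method, TMM). That is too few fragments to set the libraries apart.

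Lcn2 encodes lipocalin 2, an iron-siderophore binding protein of the secondary granules that several other cell types also make (chromosome 2, 32384633 to 32387797). It had 21.2 FPKM in Sham 1, 6.24 in Sham 2, 3.91 in MI 1 and 2.21 in MI 2. It was the 1 member whose groups did not overlap. Such a complete separation, with MI below Sham, was found for 21.9% of the genes tested, and the opposite one for 24.9%. The means were 43.7 ± 35.9 CPM (SD, n = 2) in Sham and 8.04 ± 2.56 in MI. The log2 difference was -2.44 ± 0.68 (edgeR adjusted p = 0.34), and DESeq2 gave -2.45 with an adjusted p of 0.0013. Over the alternatives its adjusted p ran from 0.0013 to 0.99.

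The other granule genes were close to absent. Ngp, a secondary granule protein related to the cathelicidins, had 19 counts in Sham 1, 0 in Sham 2, 4 in MI 1 and 15 in MI 2, or at most about 5 fragments. Camp, the cathelicidin precursor of an antimicrobial peptide, had 5 and 0 counts in Sham and 0 and 4 in MI. Mpo, the myeloperoxidase of the primary granules, had 4 counts in Sham 1 and 0 elsewhere, and Elane, neutrophil elastase, had 0 counts in all 4. The last 3 were at or under 12 counts in every library, and no fold is given for them. Further genes of neutrophil precursors, Fcnb, Cebpe, Ms4a3, Ctsg and Gfi1, chosen after their values were seen, were also at 0 counts in the 4 libraries. Of the same kind, the primary granule protease gene Prtn3 had 13 and 7 counts in Sham and 7 and 0 in MI, and the lactoferrin gene Ltf 0 and 7 in Sham and 4 and 0 in MI.

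Of the 10 members, 6 passed the filter on low counts, and 0 had an adjusted p under 0.05 in edgeR (0% of the 18475 genes tested). At an unadjusted p under 0.05 there was 1, Lcn2, lower in MI, where 4.51% of the genes tested were lower and 7.12% higher. Of the members DESeq2 likewise called only Lcn2, where it called 1.26% of the genes tested lower and 2.18% higher, and limma on log2(FPKM + 1) called 0. The median log2 difference was -1.59 over the 6 tested members and 0.0031 over all genes tested. The median describes these libraries only.

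Sham 1 decided the direction of most of these differences. In TMM-scaled CPM, S100a9 was 5.91 times higher in Sham 1 than in Sham 2, with an exact binomial 95% interval of 4.58 to 7.82 taking 4 counts as 1 fragment. S100a8 was 6.10 times higher (4.05 to 9.14), Retnlg 5.66 times (3.23 to 10.1), Csf3r 4.79 times (3.15 to 7.57) and Lcn2 3.77 times (3.31 to 4.30). The intervals hold counting error alone and no spread between samples. They are too narrow if PCR copies of a fragment were counted, since such copies are not separate molecules. Between the MI libraries, MI 1 was higher than MI 2 by 2.07 times for S100a8 (1.28 to 3.48), 1.87 times for S100a9 (1.37 to 2.58), 3.62 times for Retnlg (1.76 to 8.78), 1.61 times for Csf3r (1.105 to 2.35) and 1.58 times for Lcn2 (1.25 to 1.99). The intervals of Retnlg within Sham and within MI overlapped. Sham 2 was lower than MI 1 beyond counting error for S100a9 (ratio 0.690, 0.504 to 0.934) and Csf3r (0.428, 0.266 to 0.670). A difference between Sham 2 and MI 2 was not detectable at this depth for S100a8 (ratio 1.40, 0.815 to 2.54), S100a9 (1.29, 0.900 to 1.85), Retnlg (2.03, 0.884 to 5.45) and Csf3r (0.690, 0.411 to 1.125). For Lcn2 it was (2.94, 2.37 to 3.65).

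Without Sham 1, the log2 differences of S100a8, S100a9, Retnlg, Csf3r and the barely detected Ngp changed sign. The single Sham library was then assumed to vary like the MI pair, from which the spread came. S100a8 was at 0.14 ± 0.57, S100a9 at 0.16 ± 0.45, Retnlg at 0.19 ± 0.89 and Csf3r at 0.92 ± 0.45, with edgeR adjusted p between 0.41 and 0.94. Lcn2 remained negative at -1.19 ± 0.32 (edgeR adjusted p = 0.23). Without Sham 2, under the same assumption, the 5 clearly detected genes ran from -3.10 for Lcn2 to -1.34 for Csf3r, and their smallest edgeR adjusted p was 0.073, for Lcn2.

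**Figure D2:**
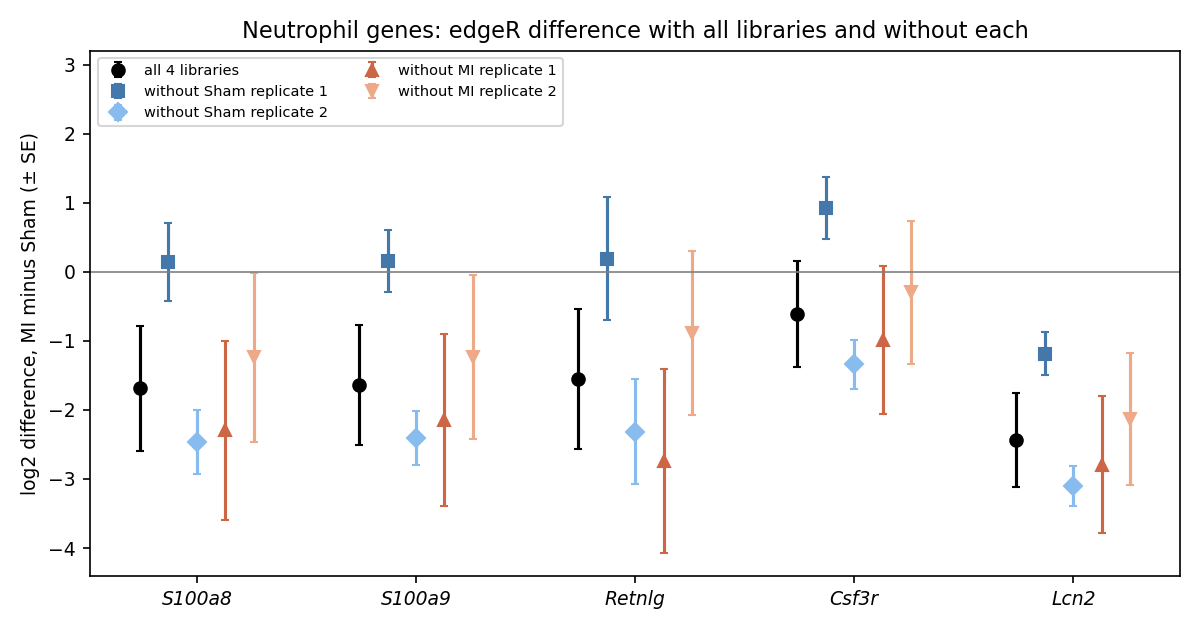
The log2 difference, MI minus Sham, with its standard error (y axis) for the 5 clearly detected neutrophil genes (x axis), fitted by edgeR with all 4 libraries and without each of them. Leaving out Sham 1 moves 4 genes above 0, to 0.14 for S100a8 and 0.92 for Csf3r, while Lcn2 stays below 0 in each fit.

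Relative to S100a8, Lcn2 and Csf3r varied more between libraries than S100a9 did. In FPKM Lcn2 was 1.65 times S100a8 in Sham 1, 2.68 times in Sham 2, 0.968 times in MI 1 and 1.27 times in MI 2. Csf3r was 0.138, 0.176, 0.277 and 0.356 times S100a8 in the same order, higher in both MI libraries. Calprotectin made up 62.2%, 53.7%, 66.5% and 66.4% of the summed FPKM of the 10 members in Sham 1, Sham 2, MI 1 and MI 2, and Lcn2 26.0%, 35.6%, 16.2% and 19.6%. These shares and the ratios between genes depend on the scale. By CPM, which is not scaled for gene length, Lcn2 was the largest member in each library. It had 69.0 CPM in Sham 1, against 24.5 for S100a9 and 11.1 for S100a8.

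Other transcripts also differed between libraries of 1 group. Of the 7 erythroid markers in the table, the adult globins summed to 17580 and 6680 FPKM in Sham 1 and Sham 2, and to 11070 and 13480 FPKM in MI 1 and MI 2. Sham 1 was thus highest in globin as in the neutrophil genes, but MI 2, lowest in the neutrophil genes, was second in globin. The 8 platelet markers summed to 26.45 and 17.59 FPKM in Sham and 21.92 and 10.33 in MI, the library order of the summed neutrophil genes. By CPM, 5 of the 8 platelet markers were highest in MI 1 and 3 in Sham 1. Calprotectin in thousandths of the globin FPKM was 2.89 in Sham 1, 1.41 in Sham 2, 1.45 in MI 1 and 0.555 in MI 2. The 11 lung epithelium markers summed to 294 FPKM in MI 1 (Sftpc at 122 FPKM) and to 0.31, 1.27 and 0.43 in Sham 1, Sham 2 and MI 2. Atrial markers summed to 163 and 5095 FPKM in Sham and 2651 and 1869 in MI. Nppa alone had 151 and 3515 FPKM in Sham and 2632 and 1855 in MI, so the MI sums were nearly all Nppa. Myl7 had 1128 FPKM in Sham 2 and 0.41 to 1.20 elsewhere. Myl4 had 185.5 FPKM in Sham 2 and 0.41 to 0.60 elsewhere. Adipocyte markers summed to 142 FPKM in Sham 2 and at most 0.43 elsewhere. The part of blood, lung, atrial and fat transcripts in the neutrophil values was not tested. Without MI 1, S100a8 had a log2 difference of -2.29 ± 1.30 and S100a9 of -2.14 ± 1.25.

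General white blood cell and macrophage transcripts did not share the pattern of the neutrophil genes. The 5 leukocyte markers summed to 14.2 and 13.4 FPKM in Sham and 22.4 and 13.1 in MI, with Sham 1 and Sham 2 nearly equal. By CPM, 3 of them were highest in MI 1 and 2 in Sham 1. The 11 macrophage markers, led by C1qb, C1qa and C1qc, the chains of complement C1q, summed to 108 and 126 FPKM in Sham and 223 and 134 in MI. By CPM, MI 1 was highest for 8 of the 11 macrophage markers, and 0 of the 11 had an unadjusted p under 0.05 in edgeR or were called by DESeq2. Among 13 genes of the phagocyte oxidase and shared myeloid cells, 10 were highest in MI 1 by CPM. Lyz2, the lysozyme of macrophages and neutrophils, had 79.7 and 96.7 FPKM in Sham and 227 and 108 in MI. MI 1 was also the library that carried lung transcripts, and their part in the leukocyte, macrophage and myeloid values was not tested. The 6 B cell markers summed to 3.62 FPKM in Sham 1 and 78.2 FPKM in Sham 2, the reverse of the neutrophil genes.

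**Figure D3:**
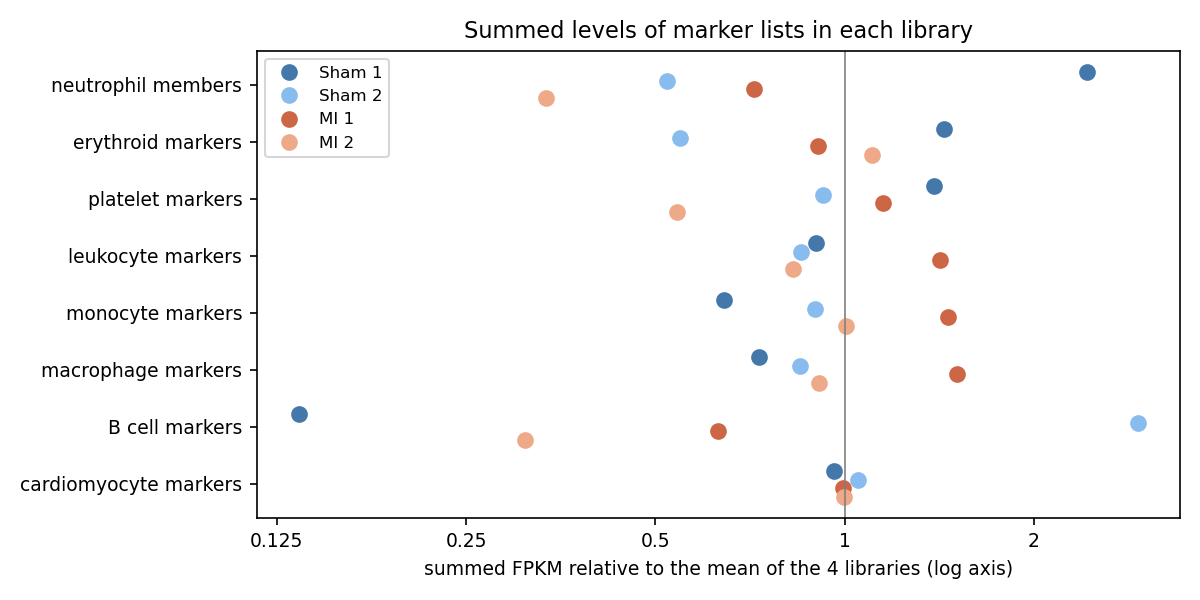
Summed FPKM of 8 marker lists in each library, relative to the mean of the 4 libraries (x axis, log scale), with 1 point per library. Sham 1 is at 2.43 times the mean for the neutrophil members and 1.44 times for the erythroid markers. MI 1 has the highest sum for leukocyte, monocyte and macrophage markers. By CPM, 3 of 6 tested monocyte markers are highest in MI 1 and 2 in Sham 1. The monocyte sum is mostly Ace, with 33.7 of 48.4 FPKM in MI 1. The cardiomyocyte markers lie between 0.961 and 1.05.

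A further list of 30 genes of mature neutrophils gave 25 that passed the filter, with 0 called by edgeR, 5 lower and 0 higher in MI at an unadjusted p under 0.05 (4.51% and 7.12% of all genes tested), and 2, Il1r2 and Cxcl2, called lower by DESeq2 (1.26% of all). Their median log2 difference was -1.03, and 0.27 without Sham 1. It was -1.51 without Sham 2, -2.01 without MI 1 and -0.70 without MI 2, where 27 passed the filter. Of the 25, 20 were highest in Sham 1, as were 27.5% of all genes tested. The 3 most abundant, Lrg1, G0s2 and Hp, are also made by other cell types. Lrg1, a secreted glycoprotein, had 61.5 and 20.2 FPKM in Sham and 22.4 and 18.8 in MI. G0s2, a lipase inhibitor, had 33.0 and 13.9 FPKM in Sham and 21.6 and 19.9 in MI. Hp, the haemoglobin-binding haptoglobin, had 37.6 FPKM in Sham 2 and 1.30 to 5.19 elsewhere. Sham 2 was also the library highest in fat, atrial and B cell transcripts, and their part in Hp was not tested.

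Cxcr2, Mmp8 and Il1r2, chosen after their values were seen, were among those highest in Sham 1. Others of the list were not, such as Padi4, a histone-citrullinating enzyme of neutrophils, with 0.01 and 0.15 FPKM in Sham and 0.18 and 0.17 in MI, and the formyl peptide receptor gene Fpr1, with 0.24 and 0.15 in Sham and 0.42 and 0.05 in MI. Both were low in counts. Padi4 had 5 and 55 in Sham and 70 and 69 in MI. Fpr1 had 26 and 15 in Sham and 45 and 6 in MI, too few to rank the libraries firmly. Cxcr2, the receptor for the neutrophil-attracting chemokines, had 1.28 and 0.05 FPKM in Sham and 0.34 and 0.17 in MI. Mmp8, neutrophil collagenase, had 2.42 and 0.13 FPKM in Sham and 0.46 and 0.37 in MI. Il1r2, the decoy receptor for interleukin 1, had 1.70 and 0.69 FPKM in Sham and 0.35 and 0.31 in MI. For Il1r2 the groups did not overlap (log2 difference -2.10 ± 0.59, and -1.20 without Sham 1; edgeR adjusted p = 0.34; DESeq2 adjusted p = 0.048, with a range of 0.048 to 0.99 over the alternatives).

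The list of 13 genes of precursor neutrophils had 6 that passed the filter, 2 of them lower in MI at an unadjusted p under 0.05 (4.51% of all genes tested), 0 called by edgeR and 1, Tuba4a, called lower by DESeq2 (1.26% of all). The 3 most abundant, Tuba4a, Mgst1 and Cd63, are broadly expressed genes of tubulin, glutathione and lysosomal function. Chil3, a chitinase-like protein of myeloid cells and lung macrophages, chosen after its values were seen, had 2.74 and 0.03 FPKM in Sham and 15.1 and 0.03 in MI. It was highest in the library that carried lung transcripts, whose part in Chil3 was not tested.

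The signals that draw neutrophils into tissue were lower in both MI libraries for several genes. Of 25 recruitment genes, 21 passed the filter and 0 were called by edgeR. At an unadjusted p under 0.05, 8 were lower and 1 higher in MI, against 4.51% and 7.12% of all genes tested. DESeq2 called 6 lower and 1 higher, against 1.26% and 2.18%. The median log2 difference was -0.73, then -0.36 without Sham 1 and -0.05 with counts divided by 4, where 16 passed. The lower genes numbered 5 without MI 1 and 5 without MI 2, where 1.95% and 2.06% of all genes were lower. The higher ones numbered 3 without Sham 1, where 9.67% of all genes were higher. One gene, Cxcl2, is also in the list of mature neutrophil genes. The 3 most abundant, Cxcl12, Lgals3 and Icam1, had log2 differences of 0.09 ± 0.26, 0.55 ± 0.36 and -0.09 ± 0.24, and their groups overlapped.

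The genes at an unadjusted p under 0.05 were chosen by their values. Cxcl1, a chemokine that binds Cxcr2, had 2.70 and 6.74 FPKM in Sham and 0.55 and 0.75 in MI (log2 difference -3.03 ± 0.51; edgeR adjusted p = 0.24; DESeq2 adjusted p = 9.54e-07). Cxcl2, a related chemokine, had 1.60 and 0.76 FPKM in Sham and 0.10 and 0.04 in MI (log2 difference -4.25 ± 0.68). Unlike the neutrophil genes, Cxcl1 was higher in Sham 2 than in Sham 1. Without Sham 1 the differences of Cxcl1 and Cxcl2 were -3.49 and -3.52, and without Sham 2 they were -2.325 and -4.74.

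Selp, the P-selectin on which leukocytes roll along the vessel wall, had 1.01 and 1.48 FPKM in Sham and 0.08 and 0.15 in MI (log2 difference -3.62 ± 0.47; edgeR adjusted p = 0.20; DESeq2 adjusted p = 5.52e-10). Sele, E-selectin, had 0.36 FPKM in Sham 1, 1.30 in Sham 2, 0.15 in MI 1 and 0.21 in MI 2. Il6, an inflammatory cytokine, had 0.75 and 1.85 FPKM in Sham, 0.09 in MI 1 and was listed at 0 in MI 2. For these 3 genes Sham 2 was the highest library. Without Sham 2 the log2 differences of Selp, Sele and Il6 were -3.40, -1.24 and -4.435. With all libraries they were -3.62, -2.33 and -5.12. Those of Il6 rest on 17 and 0 counts in MI and are no bounds. Sham 2 also carried fat, atrial and B cell transcripts, and their part in Cxcl1 and these 3 genes was not tested. Csf3, which encodes G-CSF, had 19 and 54 counts in Sham and 0 in both MI libraries. Its mean Sham CPM was 3.79 times the MI floor of 12 counts per library (2.00 times without Sham 2 and 5.57 times without Sham 1). Counting error in Sham was left out, so these folds are not lower bounds.

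Cxcl5 had 2.51 and 0.37 FPKM in Sham and 0.17 and 0.07 in MI, so its difference was carried mostly by Sham 1 (log2 difference -3.85 ± 1.09, and -1.81 without Sham 1). Its counts in MI were 25 and 12, the second at the floor. Il1b, interleukin 1 beta, had 1.64 and 1.10 FPKM in Sham and 0.87 and 0.52 in MI. Cxcr4, the receptor for Cxcl12 that holds neutrophils in the marrow, went the other way, with 0.87 and 1.60 FPKM in Sham and 5.40 and 3.99 in MI (log2 difference 1.70 ± 0.32; edgeR adjusted p = 0.27; DESeq2 adjusted p = 0.0011). Over the alternatives the adjusted p ran from 0.0011 to 0.99 for Cxcr4, from 9.54e-07 to 0.99 for Cxcl1 and from 5.52e-10 to 0.96 for Selp.

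**Figure D4:**
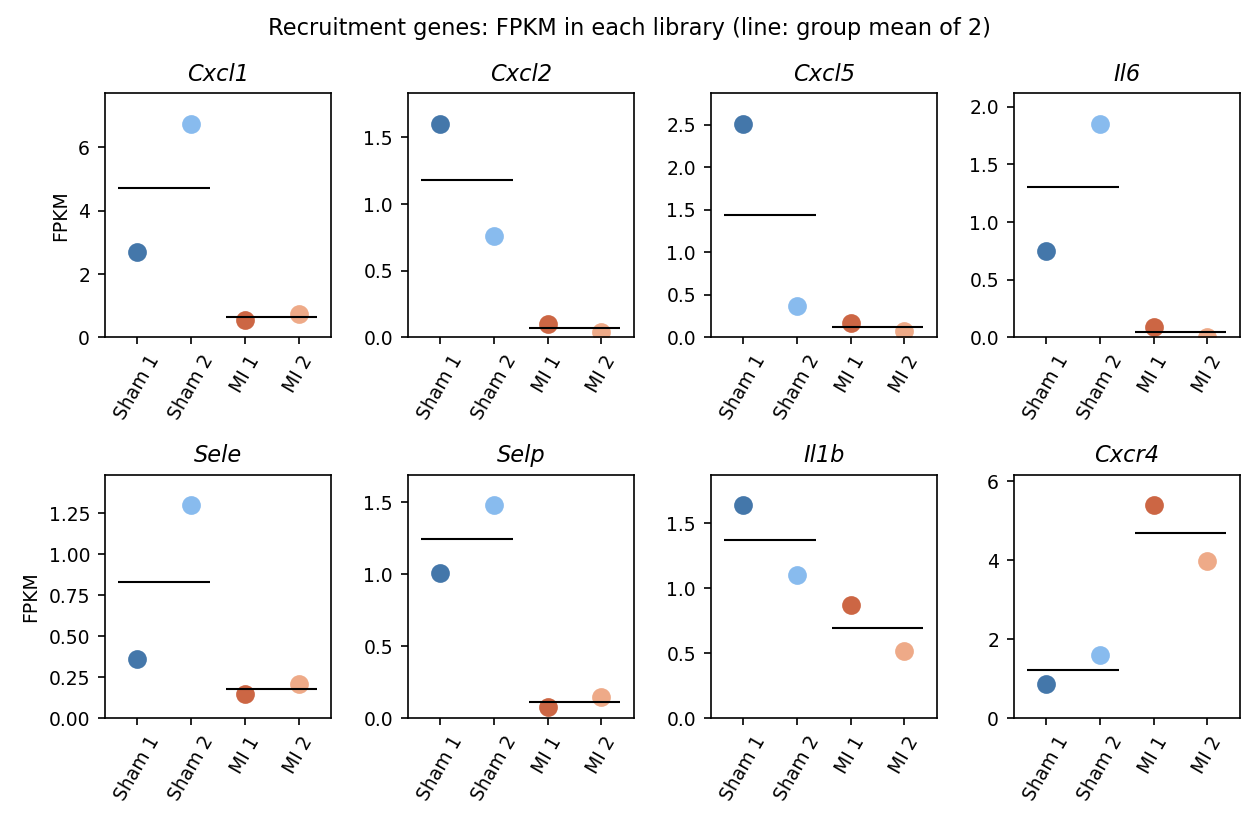
FPKM (y axis, from 0) of 8 of the 25 recruitment genes, chosen after their values were seen, 1 panel per gene, with 1 point per library and a line at each group mean of 2. Both MI points lie below both Sham points for 7 genes, such as Selp at 0.08 and 0.15 against 1.01 and 1.48, and above them for Cxcr4; such separations were found for 21.9% and 24.9% of all genes tested.

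Of 5 receptors for products of the neutrophil genes, 0 had an unadjusted p under 0.05 in edgeR and 0 were called by DESeq2. Bsg, which can bind S100a9, had 287 to 315 FPKM in the 4 libraries. Ager, a calprotectin receptor that is also abundant in lung epithelium, had 9.34 FPKM in MI 1 and 0.12 to 0.74 elsewhere. Tlr4, the other calprotectin receptor, had 1.31 and 0.26 FPKM in Sham and 2.05 and 2.11 in MI (log2 difference 1.14 ± 0.77), with 0.38 without Sham 2 and 2.83 without Sham 1.

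The 6 genes whose pattern over the 4 libraries was most like that of the summed members were Tmem82, Cox7c-ps1, Ccl12, Ccr1, Zbed5 and Lrg1, among 10711 other genes with a mean of at least 1 FPKM. Likeness was the root mean square difference of centred log2(FPKM + 0.1), which ran from 0.358 for Tmem82 to 0.422 for Lrg1. Tmem82 had 14.5 and 5.15 FPKM in Sham and 5.80 and 3.82 in MI. Ccr1, a chemokine receptor, had 2.14 and 0.60 FPKM in Sham and 0.78 and 0.57 in MI. With 4 libraries many genes have a similar order, and 5072 of the genes tested were highest in Sham 1.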

How the data were processed

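Poly(A) RNA libraries of mouse heart (2 Sham, 2 MI, grouped by their titles) were compared. Per the submitters' processing notes, StringTie 1.3.4d, HISAT2 2.0.4, UMI-tools and cutadapt 1.9 were used, with no role or order given. The genome build and strand use are not stated, and 9 of the 10 members, all but Lcn2, have the same coordinates in GENCODE M21 (GRCm38). The deposited table holds estimated counts, which are whole numbers, and FPKM values, which the authors scaled for length and depth, per the file headers. Total estimated counts were 66624106 to 75979320 per library, at about 4 counts per fragment, which limits the precision of low genes.

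The filter on low counts was filterByExpr with a min.count of 10 and a min.total.count of 15 (18475 genes kept). Counts were scaled by TMM and tested with edgeR 4.0.16 (R 4.3.3), a 2-sided quasi-likelihood test with Benjamini-Hochberg adjustment over all genes tested and a threshold of 0.05. The SE is the log2 difference divided by the root of the F statistic. Alternatives used DESeq2 1.42.0, limma 3.58.1 on log2(FPKM + 1), other scalings and filters, a replicate block and each library left out. In the test on simulated counts (17751 genes, MI against Sham), 95% of the 100 genes with a log2 change of 2 were called. In the deposited counts edgeR called 0 of 18475 genes, and Lcn2, with a log2 difference of -2.44, was not called (edgeR adjusted p = 0.34). Whether the 95% holds for the neutrophil genes was not tested. Whether replicates are separate animals is not stated, and the p-values then reflect how far these libraries differ, possibly for technical reasons only. An exact permutation test of 2 against 2 cannot give a p under 0.333. Named genes were the 10 members, up to 3 of highest mean FPKM per list and the 6 of most similar pattern; others are marked as chosen after their values were seen. Members and lists were chosen with earlier results of these data known.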

Additional observations from a re-analysis of the deposited data

How the results depend on the processing

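Over 13 alternatives the log2 difference of Lcn2 stayed negative (-3.10 to -1.19), passing the threshold in DESeq2 alone. Those of S100a8, S100a9, Retnlg and Csf3r stayed negative in 12 and changed sign without Sham 1, to 0.14, 0.16, 0.19 and 0.92; in limma on log2(FPKM + 1) S100a8 was at -0.87, S100a9 at -0.92, Retnlg at -0.78, Csf3r at -0.10 and the median of the tested members at -0.87. Ngp, with at most 19 counts in any library, was at 0.58 with the replicate block, 6.20 without Sham 1 and 0.39 without MI 1; the 6.20 is fitted against 0 counts in Sham 2, depends on the prior count and is no bound. With 1 library left out, S100a8 ran from -2.47 to 0.14, S100a9 from -2.41 to 0.16, Retnlg from -2.74 to 0.19, Csf3r from -1.34 to 0.92 and Ngp from -1.59 to 6.20. The median of the tested members was -1.59, with -2.36 to 0.17 when 1 library was left out (0.17 without Sham 1). Genes called over all tested were 0 in edgeR, 635 in DESeq2 and 0 to 14 with 1 library left out (14 without Sham 1, 5 without Sham 2); members called were 0, 1 and 0. The cause was not tested. With the replicate number as a block, 0 genes were called and Lcn2 was at -2.19 (edgeR adjusted p = 0.47). Same-numbered libraries did not deviate together (correlation -0.056), so the numbers were not taken to pair the samples. The FPKM scale moved the median of all genes by 0.11 with a pseudocount of 1 and by 0.20 with 0.1, against 0.0031 with TMM. The summed members were 4.65 times higher in Sham 1 than in Sham 2 on the FPKM scale, and 4.37 to 4.41 times in 3 other scalings, of which TMM-scaled CPM was chosen after seeing the data. Depth limits Ly6g, Ngp, Camp, Mpo and Elane, which had at most 19 counts in any library.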
